A study of Mus musculus with 4 samples.

Results

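The genes described are 10 components of the Notch pathway in the embryonic mouse kidney: the receptors Notch1, Notch2 and Notch3, the ligands Jag1, Jag2 and Dll1, the receptor-modifying enzyme Lfng, and the target genes Hes1, Hes5 and Hey2. They were taken by name, out of 20018 genes that have a named probe on the array, and all 10 were measured well enough to be tested, among 15078 named genes tested. Each is read by 1 probe except Notch1 and Notch2, which have 2, so that 12 probes on 21 spots stand for the 10 genes, and 10 of these spots carry the Dll1 probe. In this comparison 0 of the 10 genes passed the test after adjustment, against 0 of all 25071 features tested. The differences between knockout and control kidneys were small for 9 of the 10 genes, between -0.15 and 0.15 on the log2 scale, and Hey2 stood lowest at -0.65.

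RNA of whole embryonic kidneys was hybridised to 4 one-colour arrays. The 2 Sall1 knockout samples came from kidneys in which Sall1, a zinc finger transcription factor gene of the nephron progenitors, was deleted by an inducible Cre recombinase, CreER, which enters the nucleus when tamoxifen binds it. The 2 control samples are labelled control in genotype, and their titles name flox where the knockout titles name CreER, so that an effect of CreER itself cannot be told apart from loss of Sall1. All 4 samples are from a hybrid of 129 and C57BL/6, were exposed to tamoxifen at E12.5 and were collected at E13.5, 24 hours later. The labels call the line Sall1CreER, with nothing further on what drives the CreER, and do not say whether a sample was 1 embryo, a litter or a pool. The p-values therefore measure the spread between these samples, which may be technical.

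Notch signalling passes between touching cells. A ligand of the Jagged or Delta family on one cell binds a Notch receptor on its neighbour, the receptor is cut first by an ADAM protease and then by gamma-secretase, and its freed intracellular part enters the nucleus, where it joins the DNA-binding protein RBPJ and a Mastermind coactivator. Genes of the Hes and Hey families, which encode basic helix-loop-helix repressors, are turned on directly by this complex. In the developing kidney, Notch2 is the receptor most needed for proximal tubules and podocytes to form from the early nephron, and Notch is also active in the blood vessels that grow in alongside.

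The windows in which RBPJ could act directly on the target genes are shown first, because the results turn on whether these targets moved. The sequences are the 250 bases before an annotated start of each gene, from RefSeq on assembly GRCm38.p6. They are written 5′ to 3′ in the direction of the gene. The windows of Hes5 and Jag2, and 1 of Dll1, lie within the annotated span of the gene, which begins further upstream. The Notch3 window overlaps the end of that span by a few bases. A window was found for 9 of the 10 genes, 10 windows in all because 2 were found for Dll1, and Hes1 is named only. Capitals mark TGGGAA, the core that RBPJ binds, or its reverse complement TTCCCA. The core was in 3 of the 10 windows, those of Hes5, Hey2 and Lfng, against 21.6% of 32851 promoter windows of the same length. The Hes5 window is chr4:154960673-154960922 on the plus strand, the Hey2 window is chr10:30842784-30843033 on the minus strand, and the Lfng window is chr5:140607091-140607340 on the plus strand.
Hes5: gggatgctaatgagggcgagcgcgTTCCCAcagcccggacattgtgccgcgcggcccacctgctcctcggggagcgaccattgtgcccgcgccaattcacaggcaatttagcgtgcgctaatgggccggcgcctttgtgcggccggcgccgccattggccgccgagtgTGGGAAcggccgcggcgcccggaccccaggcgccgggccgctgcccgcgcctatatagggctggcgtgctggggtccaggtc
Hey2: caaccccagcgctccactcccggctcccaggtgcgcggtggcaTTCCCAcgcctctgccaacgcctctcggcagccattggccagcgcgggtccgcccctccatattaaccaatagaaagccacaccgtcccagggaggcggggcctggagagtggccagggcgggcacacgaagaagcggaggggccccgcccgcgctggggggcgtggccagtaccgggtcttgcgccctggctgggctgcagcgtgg
Lfng: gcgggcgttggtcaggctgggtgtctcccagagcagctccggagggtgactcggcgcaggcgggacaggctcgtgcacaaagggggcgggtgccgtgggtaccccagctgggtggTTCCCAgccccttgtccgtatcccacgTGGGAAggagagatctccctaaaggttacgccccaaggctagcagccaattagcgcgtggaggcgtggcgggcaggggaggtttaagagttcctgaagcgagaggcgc
Counted from the start that each window precedes, the core lies 226 and 82 bases before it in Hes5. It lies 207 bases before that start in Hey2, and 135 and 108 bases before it in Lfng. Of the motifs bound by the Hes and Hey proteins, the E box CACGTG was in 1 of the 10 windows, that of Lfng, where it overlaps the nearer core, against 6.02% of all windows. The N box CACNAG was in 4 of the 10 windows, those of Notch1, Notch2, Notch3 and Lfng, against 36.7% of all windows. Both strands were searched for each motif. A match describes the letters only, and the sources used here hold no measurement of RBPJ on these windows.

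Signals are log2 values of the processed signal, scaled so that 0 is the 75th percentile of the array, and levels of different probes are not set against each other. A probe was well above background where the scanner software said so, and a difference is given as knockout minus control with its standard error from the model fitted across all features. Each array held 62976 spots, of which 59305 were not controls. Of these 60.6% to 64.2% were well above background, none was saturated, and all 4 arrays lay on 1 slide. In RNA of whole kidneys, fewer cells of a type and less RNA per cell cannot be told apart. Sall1 was checked first. Its signal was 1.03 and 1.07 in the knockout samples, against 1.79 and 1.81 in the controls, a difference of -0.75 ± 0.056, or 1.68-fold lower, with an adjusted p of 0.126. The samples of the groups did not overlap, and with a trended and robust variance prior the adjusted p was 0.00141. No source used here says which exons the deletion takes out, so the Sall1 probe may or may not lie among them.

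**Figure D1:**
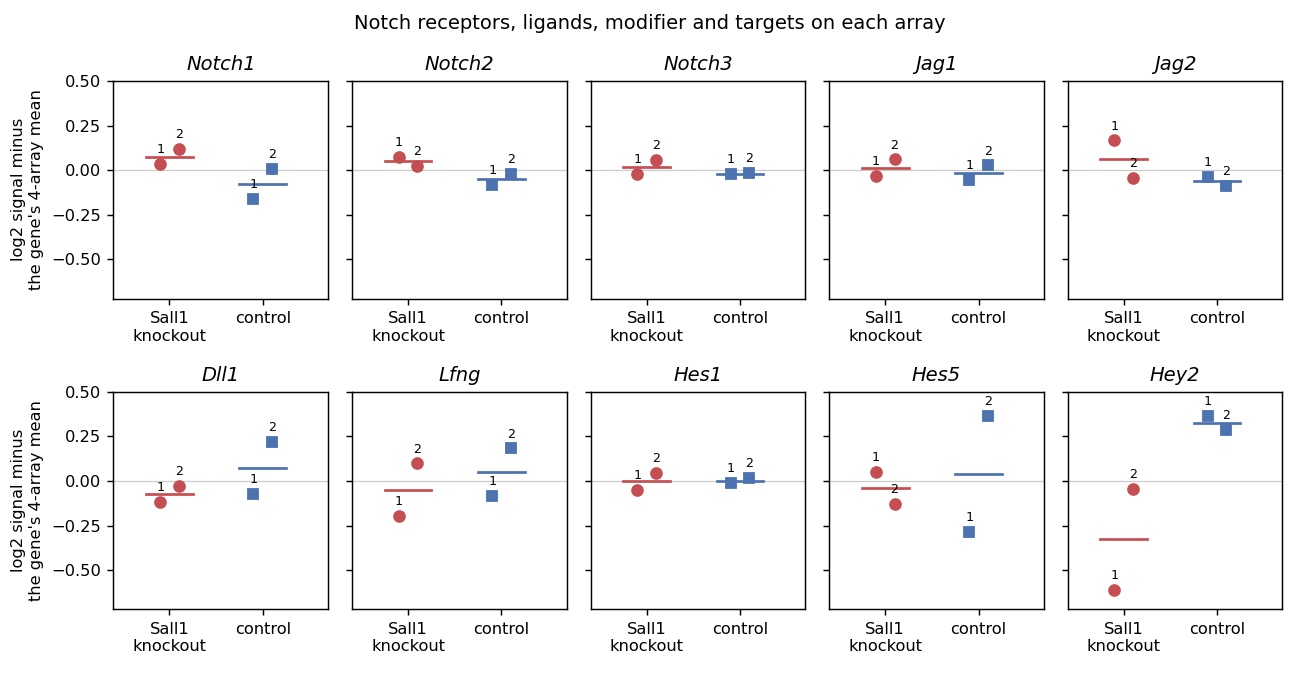
Signal of the 10 Notch genes on each array, as log2 minus the mean of the gene over the 4 arrays, with knockout on the left and control on the right in each panel, and lines for group means. In the Hey2 panel both knockout arrays, at -4.30 and -3.74 before centring, sit under both control arrays, at -3.33 and -3.41.

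The receptors differed little between groups. Notch1, which marks the early nephron, the endothelium and other cells, gave -1.29 and -1.21 in the knockout samples, against -1.49 and -1.32 in the controls. Both knockout values lay above both control values, with a difference of 0.15 ± 0.088 and a 95% interval from -0.097 to 0.40. Its adjusted p was 0.516, and a second Notch1 probe was well above background on 0 of 4 arrays. Notch2, the main receptor of nephron patterning, gave 2.63 and 2.58 in the knockout samples, against 2.47 and 2.54 in the controls. Here too the knockout values were both higher, by 0.10 ± 0.062 (95% interval -0.073 to 0.28, adjusted p = 0.528). On the linear scale, in units of the array's 75th percentile, Notch2 averaged 6.09 ± 0.15 in the knockout and 5.67 ± 0.18 in the controls (SD, n = 2 each). The second Notch2 probe is above background on all 4 arrays but dim. Its processed signals were 51.7 and 49.7 in the knockout samples, against 45.6 and 44.7 in the controls. On the log2 scale it read -3.37 and -3.39 in the knockout samples, against -3.71 and -3.62 in the controls. That is a difference of 0.28 ± 0.068, also without overlap, and in a fit over all 34246 probes its unadjusted p was 0.0153 and its adjusted p 0.342. Notch3, a receptor of vessel mural cells and of the early nephron, gave 2.72 and 2.80 in the knockout samples, against 2.72 and 2.73 in the controls. The lower knockout value lay among the control values, the difference was 0.038 ± 0.061 with an adjusted p of 0.804, and it was -0.00061 with median centring of the arrays.

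The ligands overlapped between the groups. Jag1, the ligand that mutations link to Alagille syndrome in people, gave 1.62 and 1.71 in the knockout samples, against 1.60 and 1.68 in the controls, a difference of 0.027 ± 0.070 with an adjusted p of 0.884. The groups overlapped, and the difference was -0.012 with median centring. Jag2, a second Jagged ligand, gave -2.03 and -2.24 in the knockout samples, against -2.23 and -2.28 in the controls. The higher value came from 1 knockout sample only, for a difference of 0.12 ± 0.096 (95% interval -0.15 to 0.39, adjusted p = 0.608). Dll1, the Delta ligand of the early nephron, gave -1.19 and -1.10 in the knockout samples, against -1.15 and -0.86 in the controls. The difference was -0.15 ± 0.12 with an adjusted p of 0.628, and it rested on 1 control sample: without control replicate 2 the difference was -0.0032, and without control replicate 1 it was -0.29.

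Dll1 is the only one of these genes with more than 1 spot per probe, so its spread within an array could be seen. As a whole, its linear signal averaged 0.451 ± 0.020 in the knockout and 0.502 ± 0.071 in the controls (SD, n = 2 each). Its 10 spots ranged from -1.36 to -1.01 with a median of -1.15 in knockout replicate 1 and from -1.23 to -1.02 with a median of -1.11 in knockout replicate 2. In control replicate 1 they ranged from -1.25 to -0.96 with a median of -1.17, and in control replicate 2 from -0.93 to -0.76 with a median of -0.87. All spots of control replicate 2 therefore read higher than all spots of the other 3 arrays, while the spots of control replicate 1 overlap those of both knockout arrays. Spot by spot, 10 of 10 had a lower knockout mean, by -0.28 to -0.018, but they share 4 samples and are not separate replicates. 1 spot of knockout replicate 1 was marked as an outlier, so it is in these ranges and in the plot but not in the gene's value.

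**Figure D2:**
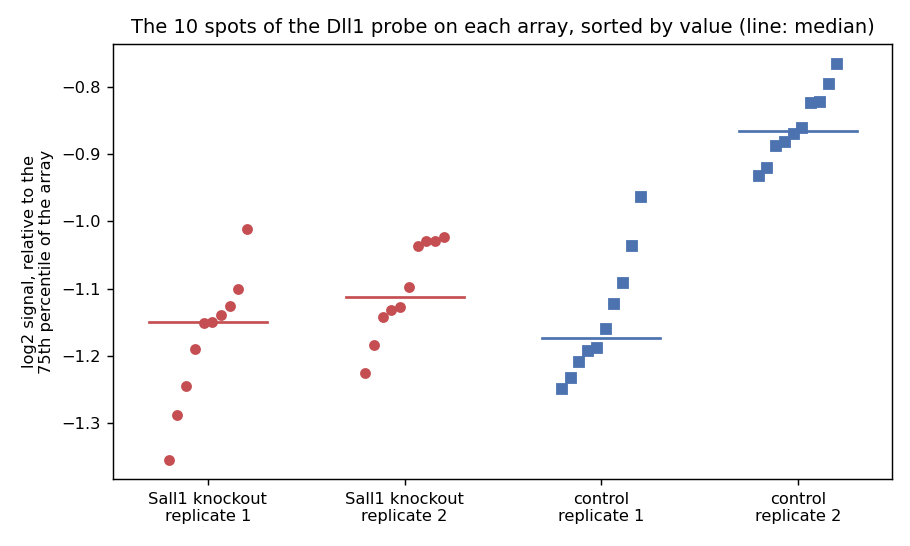
The 10 spots of the Dll1 probe on each array, sorted by value, as log2 relative to the array's 75th percentile, with knockout arrays on the left, control arrays on the right and a line at each median. The medians are -1.15 and -1.11 in the knockout arrays, against -1.17 and -0.87 in the control arrays, and control replicate 2 stands above the other 3.

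Lfng, the glycosyltransferase that adds sugars to the receptors and so alters which ligand they answer, gave -2.27 and -1.97 in the knockout samples, against -2.16 and -1.89 in the controls. In both groups replicate 2 was the higher, and the difference of -0.099 ± 0.15 with an adjusted p of 0.797 was smaller than the gap between replicates, which was 0.29 in the knockout and 0.27 in the control group. Under normexp background correction it was 0.0029.

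Of the targets, Hes1, the most widely used Notch target, gave -0.74 and -0.65 in the knockout samples, against -0.71 and -0.68 in the controls. The control values lay between the knockout values, the difference was -0.0037 ± 0.065 with a 95% interval from -0.19 to 0.18, and the adjusted p was 0.985. Its linear signal averaged 0.618 ± 0.029 in the knockout and 0.619 ± 0.0086 in the controls (SD, n = 2 each). The sign of so small a difference turned under normexp correction, to 0.019, and in the deposited value table, to 0.0030. Hes5, a target known from neural progenitors and the early nephron, gave 0.42 and 0.24 in the knockout samples, against 0.089 and 0.74 in the controls. Its linear signal averaged 1.26 ± 0.11 in the knockout and 1.36 ± 0.43 in the controls (SD, n = 2 each). The 2 controls lay further apart than the knockout samples and enclosed them, with a gap of 0.65 between them. The difference was -0.079 ± 0.25 with an adjusted p of 0.904, and without control replicate 2 it was 0.24. Hey2, a target known for its part in heart and vessel development, gave -4.30 and -3.74 in the knockout samples, against -3.33 and -3.41 in the controls. Both knockout values were below both control values, for a difference of -0.65 ± 0.21 with a 95% interval from -1.26 to -0.043, or 1.57-fold lower. The unadjusted p was 0.0412 and the adjusted p 0.379, and the trended and robust prior gave an adjusted p of 0.246.

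The Hey2 difference rests on a dim probe. Its processed signals were 27.1 and 39.1 in the knockout samples, against 59.5 and 51.6 in the controls, and these were 1.81 and 2.09 times the lowest signal well above background in the knockout arrays, against 3.77 and 3.36 times in the control arrays. Relative to the 75th percentile, Hey2 averaged 0.0629 ± 0.017 in the knockout and 0.0969 ± 0.0038 in the controls (SD, n = 2 each). The knockout replicates differed by 0.57, about as much as the groups did. Without knockout replicate 1 the difference was -0.37, and without knockout replicate 2 it was -0.93. With normexp correction at an offset of 50 it was -0.15, and the cause of that change was not tested. Among 5878 features within 1 log2 unit of its mean, 1.74% were at least as much lower and 4.97% at least as much higher.

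**Figure D3:**
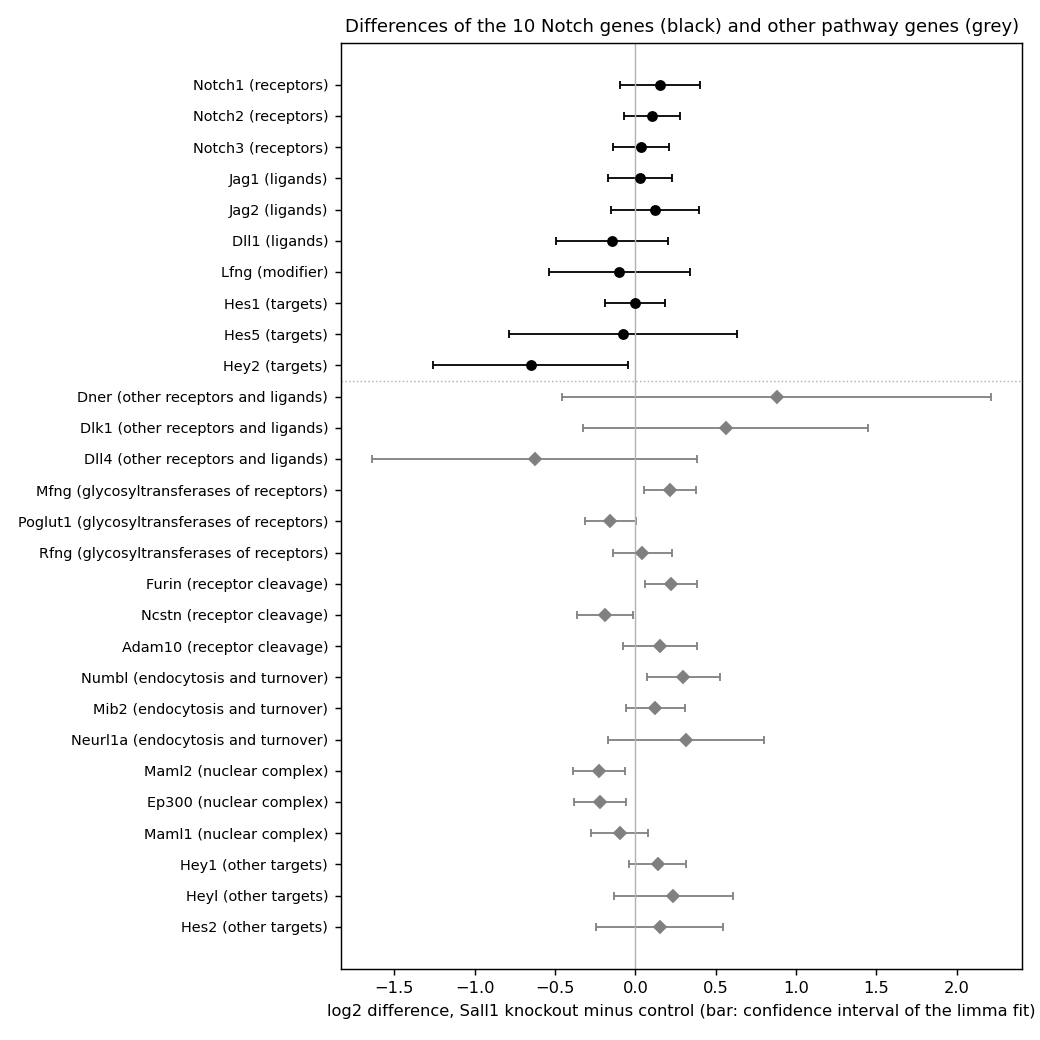
Difference of each of the 10 Notch genes (black circles) and of the named genes of other roles in the pathway (grey diamonds), knockout minus control on the log2 scale, with the 95% interval of the fit, grouped by role. Of the 10, each drawn by its probe of highest mean, every interval includes 0 except that of Hey2. It runs from -1.26 to -0.043 before any adjustment for the number of features tested. The second Notch2 probe, with an interval from 0.091 to 0.47 in the fit over all probes, is not drawn.

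The counts over the 10 genes, each by its probe of highest mean, were read against those over all 25071 features tested. After adjustment 0 of the 10 and 0 of all features (0%) passed with the default prior of limma, and with the trended and robust prior 0 of the 10 and 1.2% of all features passed. At an unadjusted p under 0.05, 0 of the 10 were higher, against 6.77% of all features, and 1 of the 10, Hey2, was lower, against 5.94%. In 2 of the 10, Notch1 and Notch2, both knockout values lay above both control values, against 21.5% of all features, and in 1 of the 10, Hey2, both lay below, against 27.7%. With a difference of at least 1.5-fold as well, 0 of the 10 were higher, against 2.48%, and 1 was lower, against 1.05%. The median difference was 0.012 over the 10 genes and -0.013 over all features. Before adjustment the default prior gave 1698 higher and 1489 lower features. Normexp correction called 41 features after adjustment, none of them among the 10.

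**Figure D4:**
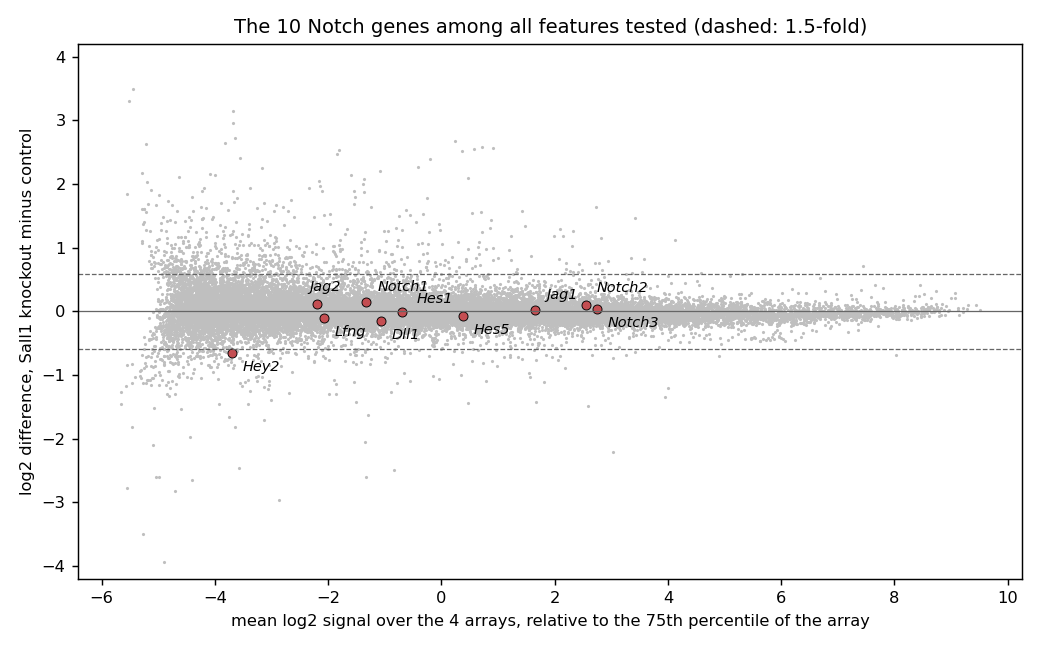
Difference of every feature tested, knockout minus control on the log2 scale, against its mean signal, with the 10 Notch genes marked in red and dashed lines at 1.5-fold. Hey2 lies at -0.65, below the lower line, and the other 9 Notch genes lie between -0.15 and 0.15.

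The rest of the pathway was read from 50 further genes in 6 roles, of which 46 were tested. None of the 46 passed after adjustment, and before adjustment 3 were past 0.05 as higher and 3 as lower, against 6.77% and 5.94% of all features. Without overlap, 12 were higher and 10 lower, against 21.5% and 27.7% of all features, so that these counts lay near the shares over all features. Their median difference was 0.026 and their range -0.63 to 0.88. Among other receptors and ligands, 0 of 5 passed at the unadjusted threshold in either direction, and the widest differences came with wide gaps between controls. Dner, an EGF-repeat ligand of neurons, gave -2.32 and -2.56 in the knockout samples, against -2.69 and -3.95 in the controls, and Dll4, the ligand of endothelial tip cells, gave -2.73 and -2.75 in the knockout samples, against -1.63 and -2.60 in the controls. The difference was 0.88 for Dner and -0.63 for Dll4, both without overlap. Of the 46 genes, these were the 1 higher and the 1 lower at least 1.5-fold apart without overlap, against 2.48% and 1.05% of all features. Control replicate 2 minus control replicate 1 was -1.26 for Dner and -0.97 for Dll4. Dlk1, a non-canonical ligand, differed by 0.56 ± 0.31 with overlap, and its second probe by 0.63 without overlap.

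Among glycosyltransferases, Mfng, a Fringe enzyme like Lfng, gave 2.01 and 2.05 in the knockout samples, against 1.80 and 1.83 in the controls, a difference of 0.22 ± 0.057 with an unadjusted p of 0.0218 and an adjusted p of 0.336. Its second probe differed by 0.13 in the same direction. Poglut1, which adds glucose to the receptors, differed by -0.16, and Rfng, the third Fringe enzyme, by 0.043 with overlap. A second Rfng probe was higher without overlap, by 0.17. Of the 8 receptor cleavage genes tested, Furin, which cuts the receptor on its way to the surface, was at 1.38 and 1.40 in the knockout samples, against 1.20 and 1.15 in the controls, a difference of 0.22 ± 0.058 with an unadjusted p of 0.0205. Ncstn, a gamma-secretase subunit with a dim probe, gave -3.45 and -3.52 in the knockout samples, against -3.28 and -3.31 in the controls. It differed by -0.19 with an unadjusted p of 0.0384. With the trended and robust prior of limma, the adjusted p was 0.617 for Ncstn and 0.124 for Furin. Adam10, which makes the ligand-induced cut, differed by 0.15 without overlap.

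Of 12 endocytosis and turnover genes, 5 were higher and 2 lower without overlap, against 21.5% and 27.7% of all features. Numbl, a relative of the Notch inhibitor Numb, was at 0.84 and 0.79 in the knockout samples, against 0.59 and 0.43 in the controls, a difference of 0.30 with an unadjusted p of 0.0225. Mib2 and Neurl1a, E3 ligases that act on ligands, differed by 0.12 and 0.31, and a second Neurl1a probe by 0.37 without overlap. In the nuclear complex, which includes Rbpj at -0.0079, 2 of 12 passed at the unadjusted threshold, both lower, against 5.94% of all features. These were Maml2, a Mastermind coactivator, at -0.22 with a p of 0.0189, and Ep300, a histone acetyltransferase, at -0.22 with a p of 0.0197. Maml1 differed by -0.098. Of the 6 other targets tested, Hey1 differed by 0.14 and Heyl by 0.24, both without overlap, and Hes2 by 0.15 with overlap. So the related targets Hey1 and Heyl lay above the controls and Hey2 below them, and none of the 3 passed after adjustment.

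Markers of kidney cell types were read beside these values, since some cell types use Notch genes more than others. Values are sums of the linear signal over each list, relative to the 75th percentile, and were not tested. The counts of marker genes without overlap stand against 21.5% higher and 27.7% lower over all features. Nephron progenitor markers summed to 112 to 121 in the knockout samples, against 160 to 166 in the controls, and 11 of 14 were lower without overlap. Early nephron markers summed to 51.1 to 54.2 in the knockout samples, against 48.0 to 51.3 in the controls. Of these markers, 4 of 14 were higher and 4 lower without overlap, with a median difference of 0.021. Ccnd1, whose probe gives most of the early nephron sum, differed by 0.092 with overlap. Podocyte markers summed to 43.2 to 45.7 in the knockout samples, against 43.4 to 43.6 in the controls, while 7 of 11 were higher and 1 lower without overlap, with a median difference of 0.13. Wt1, whose probe gives most of that sum, differed by 0.060. Endothelial markers, of the cells in which Hey2 and Dll4 are best known, summed to 41.3 to 42.6 in the knockout samples, against 37.3 to 37.6 in the controls, with 9 of 14 higher without overlap and all 14 above background. Mural cell markers summed to 36.5 to 40.1 in the knockout samples, against 31.1 to 33.9 in the controls, with 5 of 9 tested genes higher and 1 lower without overlap. The median difference of that list was 0.10. Mcam, whose probe gives most of the mural sum, differed by 0.10 without overlap. Acta2, a bright gene of the list, differed by 1.02 ± 0.38, and its control replicate 2 minus control replicate 1 was -0.94. Acta2 gave 3.04 and 2.59 in the knockout samples, against 2.26 and 1.32 in the controls. The skeletal muscle sums given below rank the 4 arrays in the same order. Stroma markers summed to 149 to 161 in the knockout samples, against 119 to 141 in the controls, with 5 of 10 higher and 2 lower without overlap. The endothelial and mural sums were higher in the knockout samples, in which the Hey2 signal was lower, and their part in that value was not tested.

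Markers of tissues beyond the kidney, and of other cell types within it, also differed between samples. Liver and gut markers, such as Afp, summed to 41.0 to 44.4 in the knockout samples, against 14.1 to 20.8 in the controls, with 12 of 13 tested genes higher without overlap. Skeletal muscle markers summed to 70.9 to 104 in the knockout samples, against 26.0 to 58.8 in the controls, and 11 of 12 tested genes were higher without overlap. Erythroid sums were high in replicate 2 of both groups, at 97.0 and 207 in the knockout samples and 95.0 and 213 in the controls, with 1 of 9 tested genes higher and 0 lower without overlap. Proximal tubule markers summed to 3.85 to 4.23 in the knockout samples, against 2.42 to 2.44 in the controls, with 7 of 10 tested genes higher and 0 lower without overlap. Ureteric bud markers summed to 77.4 to 78.1 in the knockout samples, against 66.3 to 70.1 in the controls, with 6 of 12 higher and 2 lower without overlap. Macrophage markers summed to 46.0 to 46.5 in the knockout samples, against 44.7 to 47.0 in the controls, but 8 of 10 were higher and 1 lower without overlap, with a median difference of 0.45. The lower one was Itgam, whose probe gives most of that sum, at -0.076. Markers of neurons and neural crest summed to 5.09 to 5.32 in the knockout samples, against 5.60 to 6.57 in the controls, with 5 of 14 lower and 0 higher without overlap. Among the defining genes Slc5a2, Myh11, Cdx2 and Ckm were not well above background in both samples of either group. The part of these lists in the Notch values was not tested.

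**Figure D5:**
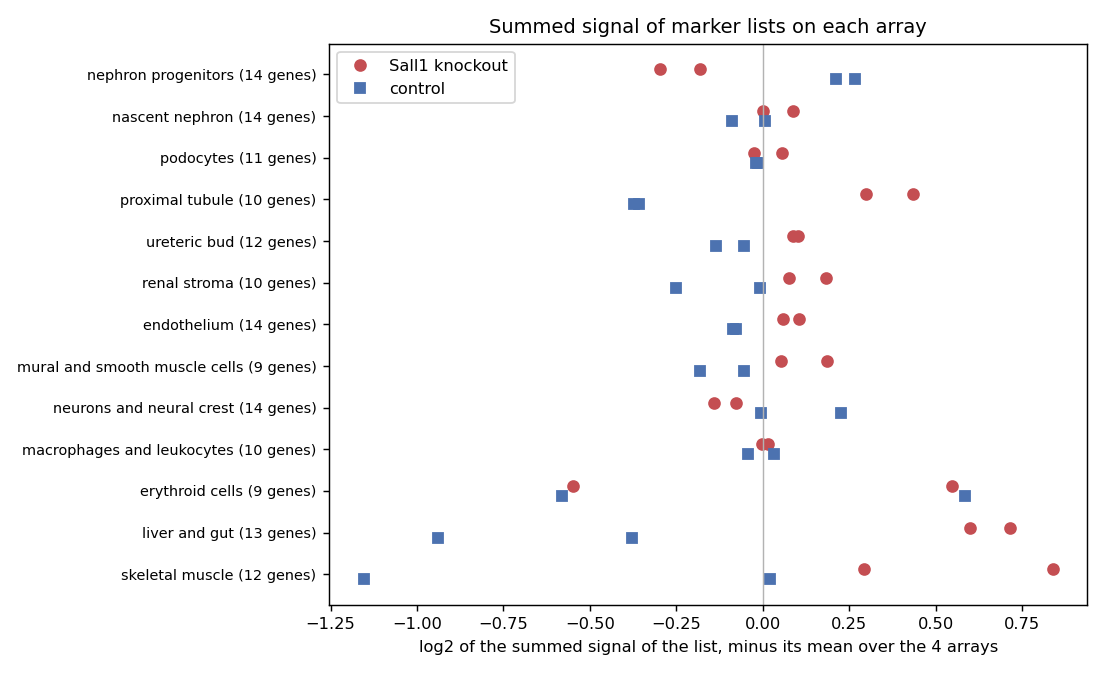
Summed signal of each marker list on each array, as log2 minus its mean over the 4 arrays, with knockout arrays as circles and control arrays as squares. The nephron progenitor sums of the knockout arrays, 112 and 121, lie left of the controls, and the liver and gut sums, 41.0 and 44.4, lie right of them.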

How the data were processed

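Total RNA of 2 Sall1 knockout and 2 control kidney samples was labelled with Cy3, from 0.25 µg each, per the labels. The authors deposited scanner files that give a processed intensity for each spot, not on a log scale. Per the file headers, Agilent's software had subtracted background and removed trends across the array, and arrays were not scaled to each other. The value table they deposited has the same intensity, within 1% for 100% of 55249 single-spot probes.

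Here each intensity was divided by the 75th percentile of its array and set to log2. Control spots and outlier-marked spots (147 to 174 an array) were dropped, and spots of a probe averaged. A probe was kept when both arrays of a group had it well above background, which left 34253 of 55681. RefSeq accessions were matched to symbols of assembly GRCm38.p6 for 26413 probes, and a gene took its probe of highest mean. The fit used limma 3.58.1 (R 4.3.3), with lmFit and eBayes at the default prior, two-sided, adjusted by Benjamini-Hochberg over 25071 features. It had 2 residual and 1.79 prior degrees of freedom. The same kind of fit was also run, after the main fit, on simulated data. Intervals are at 95% without adjustment, and precision is limited by the number of arrays.

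The genes and lists were chosen with earlier results of these data known. The text names all 10 genes with every probe, Sall1, and of each other pathway role the 3 genes of smallest unadjusted p and any that passed, plus up to 2 bright genes of a marker list. Rbpj was added after its value was seen. Replicates were numbered in sample order and pair nothing. Alternatives were normexp correction (offset 50), quantile normalization, median centring, the background filter dropped or asked of all 4 arrays, outlier-marked spots retained, probes of a gene averaged or all fitted, a trended and robust prior, array weights, the value table, an adjusted p under 0.1, a 2-fold limit and leaving out each array.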

Additional observations from a re-analysis of the deposited data

How the results depend on the processing

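No Notch gene passed after adjustment under any of the alternatives run. Notch1, Notch2 and Jag2 stayed higher and Dll1 and Hey2 stayed lower in the knockout in all 15 alternatives, with Hey2 between -0.93 and -0.15. With each array left out, the range was 0.066 (without control replicate 1) to 0.24 (without control replicate 2) for Notch1, 0.070 to 0.13 for Notch2, and 0.017 (without knockout replicate 1) to 0.23 (without knockout replicate 2) for Jag2. Notch2 was 0.19 with the mean over its probes. The count of Notch genes at least 1.5-fold apart without overlap, 1 here, was 0 with normexp correction, 0 at a 2-fold limit and 0 to 1 with each array left out, the 0 coming without knockout replicate 1. With median centring, Notch3 turned to -0.00061 and Jag1 to -0.012. With normexp correction, Lfng turned to 0.0029 and Hes1 to 0.019, and in the deposited value table Hes1 was 0.0030. With each array left out, the difference ranged from -0.0023 to 0.079 for Notch3, -0.020 to 0.074 for Jag1, -0.25 to 0.048 for Lfng, -0.052 to 0.045 for Hes1 and -0.40 to 0.24 for Hes5. The Sall1 difference passed with normexp correction, at -0.72 (limma, adjusted p = 0.0383), and with the trended and robust prior, at -0.75 (adjusted p = 0.00141), over a range of adjusted p from 0.00141 to 0.515. The median over the other pathway genes was -0.0028 with the mean over probes, -0.013 with median centring and -0.00011 to 0.062 with each array left out. Over all features, 41 passed with normexp correction (19 higher, 22 lower) and 300 with the trended and robust prior (136 higher, 164 lower), and 0 in the other 13 alternatives that were run over all features. The causes of these changes were not tested. The low signals of the Hey2 probe and of the second Notch2 probe limit their values, and 2 arrays a group limit the values of all 10 genes.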
